A study of Macaca mulatta with 18 samples.

Results

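DLX, SP and GSX genes code for transcription factors that pattern the ventral forebrain and its GABAergic neurons. The set described here is DLX1, DLX2, DLX5, DLX6, SP8, SP9, GSX1 and GSX2, chosen by name, with earlier results of these data known, and 4 of these 8 genes (DLX6, SP8, SP9 and GSX1) were found among the 22345 genes of the RNA table. The Ensembl identifiers that the symbol table gives for DLX1, DLX2, DLX5 and GSX2 were not among the identifiers of the RNA table, so these 4 genes are not analysed here. The RNA came from brain of wild type rhesus macaque fetuses at embryonic day 84, in 3 GZ libraries and 3 CP libraries. The labels leave GZ and CP unexpanded; in work on fetal cortex these letters usually stand for germinal zone and cortical plate. Values are log2 FPKM (fragments scaled to transcript length and sequencing depth), which the authors had normalized with cqn, a method that corrects for gene length and GC content.

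In the ganglionic eminences, the ventral swellings of the fetal forebrain, GSX1 and GSX2 are homeobox genes of dividing progenitors in the ventricular zone. DLX genes are homeobox genes that act next, in the subventricular zone and in young GABAergic neurons, and in mice they lie in pairs that share enhancers. SP8 and SP9 are zinc finger factors of ganglionic eminence progenitors and of the interneurons and striatal neurons that descend from them. Many cortical interneurons are born there and migrate into the cortex. In bulk tissue, fewer cells of a type and less RNA per cell cannot be told apart.

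Library medians ran from 1.82 to 1.87 on the log2 scale, and read depth is unknown because the values carry no read totals. Labels do not say whether libraries of one number come from one animal, so the p-values describe how these libraries scatter, and some of that scatter may be technical. The median log2 FPKM of 8 Y-linked genes was -0.17, 3.63 and -1.70 in GZ libraries 1 to 3, against 1.40, 3.34 and -1.69 in CP libraries 1 to 3. The libraries numbered 1 thus differed from each other, with RPS4Y1, a Y-linked ribosomal protein gene, at -0.23 in GZ library 1 and 4.45 in CP library 1. Results on the members are therefore also given without both libraries numbered 1 where that ends a call. The 13 measured dorsal telencephalic factors summed to 397 to 673 FPKM in GZ and 938 to 1143 FPKM in CP. The 20 measured ventral and GABAergic factors summed to 960 to 1016 FPKM in GZ and 618 to 740 FPKM in CP. These sums do not show which region of the brain the tissue came from.

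All 4 measured members had higher RNA in GZ than in CP. SP9 differed most, by 7.11-fold, followed by GSX1 at 5.33-fold, DLX6 at 4.92-fold and SP8 at 1.88-fold. The place of GSX1 in that order was not stable. Without GZ library 3 its log2 difference (3.17) exceeded that of SP9 (2.80), and with a pseudocount of 1 FPKM it (1.60) was below that of DLX6 (1.79). All 4 passed an adjusted p of 0.05 in limma, where 24.5% of the 13460 genes tested were called higher in GZ and 45.4% were called in either direction. For each of the 4, the lowest GZ library lay above the highest CP library, which held for 30.9% of genes tested, while the opposite separation held for 25.5%. The log2 differences of SP9, GSX1 and DLX6 exceeded those of 99.9%, 99.8% and 99.8% of genes tested, and that of SP8 exceeded 93.4%. Because of how the genes were chosen, the count of 4 has no test of its own. GSX1 averaged below the filter of 0 in CP and entered the tests through its GZ level, so its call and its rank depend on the group where it was high.

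**Figure D1:**
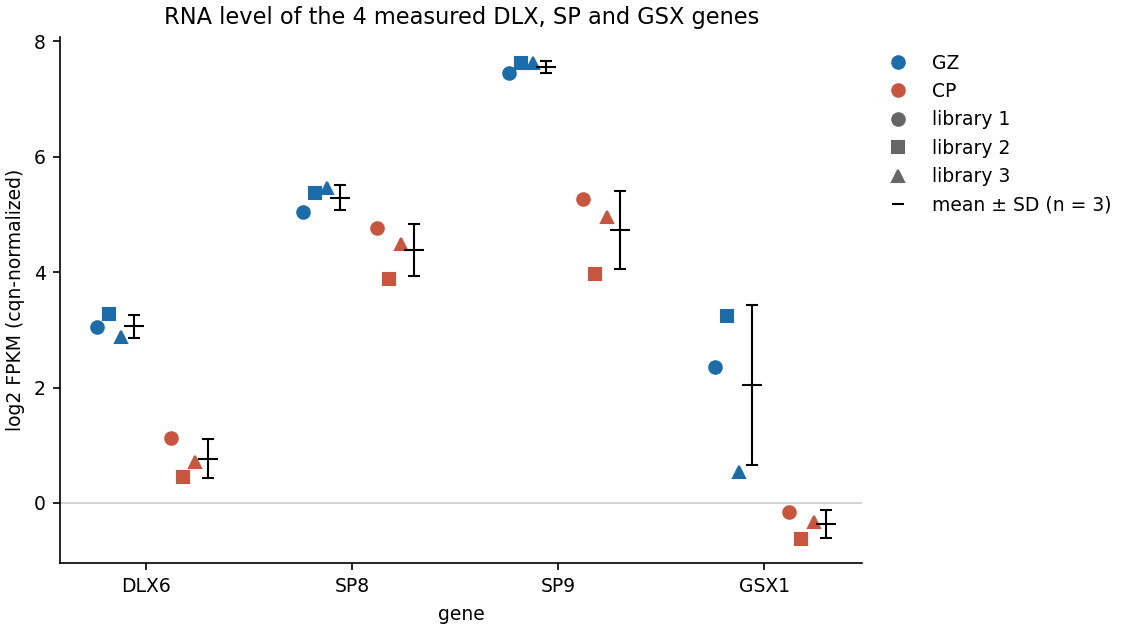
RNA level (y axis, cqn-normalized log2 FPKM) of DLX6, SP8, SP9 and GSX1 in each GZ library (blue) and CP library (red), with the mean ± SD of 3 libraries in black. Every GZ point lies above every CP point of the same gene, with the narrowest gap for SP8 (0.27) and the widest for SP9 (2.18).

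GSX1, a homeobox gene of early ventral progenitors, was the lowest of the 4 genes in both tissues. It stood at 2.35, 3.25 and 0.53 log2 FPKM in GZ libraries 1 to 3, against -0.15, -0.62 and -0.32 in CP libraries 1 to 3. GZ library 3 was far below the other GZ libraries and 0.69 above the highest CP library. The GZ libraries spanned 2.71, a wider range than 99.5% of the 1167 tested genes of like mean level, whereas the CP libraries spanned 0.47. CP values corresponded to 0.65 to 0.90 FPKM, and the CP mean was above that of 0.48% of genes tested, so the fold of GSX1 rests on very low CP values. The log2 difference was 2.41 ± 0.60 (SE, limma adjusted p = 0.014, n = 3 per tissue). Leaving out GZ library 3 gave 3.17 (limma adjusted p = 4.0e-04), leaving out GZ library 2 gave 1.81 (adjusted p = 0.029), and a pseudocount of 1 FPKM gave 1.60. Without both libraries numbered 1 the difference was 2.36 and was no longer called (limma adjusted p = 0.082).

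DLX6, a homeobox gene that in mice is needed with its DLX partners for the maturation of GABAergic neurons, was lower than both SP genes in each tissue. Its level was 3.04, 3.27 and 2.88 log2 FPKM in GZ libraries 1 to 3, against 1.12, 0.45 and 0.72 in CP libraries 1 to 3. All GZ libraries were at least 1.75 above all CP libraries. The GZ range of 0.40 was wider than that of 42.8% of the 1543 tested genes of like level, and the CP range of 0.67 was wider than that of 73.6%. The log2 difference was 2.30 ± 0.21 (SE, limma adjusted p = 2.1e-04, n = 3 per tissue). In human and mouse an antisense RNA gene overlaps DLX6, and no source used here says whether reads were counted by strand, so RNA of the opposite strands cannot be told apart.

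SP9, a zinc finger gene needed in mice for striatal neurons and for interneurons of the medial ganglionic eminence, was the most abundant of the 4. It stood at 7.44, 7.62 and 7.62 log2 FPKM in GZ libraries 1 to 3, against 5.26, 3.97 and 4.96 in CP libraries 1 to 3. The GZ libraries were within 0.18 of each other, and their mean was above that of 97.9% of genes tested. CP libraries spanned 1.29, wider than 99.9% of the 1264 tested genes of like level, with CP library 2 the lowest. The log2 difference was 2.83 ± 0.29 (SE, limma adjusted p = 3.0e-04, n = 3 per tissue), and without CP library 2 it was 2.45 (adjusted p = 1.9e-04).

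SP8, its close relative, known from the lateral and caudal ganglionic eminences and, in mice, also from patterning of the early cortex, differed least. It stood at 5.04, 5.38 and 5.46 log2 FPKM in GZ libraries 1 to 3, against 4.77, 3.88 and 4.49 in CP libraries 1 to 3. GZ library 1 and CP library 1 were only 0.27 apart, and the CP range of 0.89 was wider than that of 99.0% of the 2773 tested genes of like level. The log2 difference was 0.91 ± 0.22 (SE, limma adjusted p = 0.012, n = 3 per tissue). Leaving out CP library 2 lowered it to 0.66 (limma adjusted p = 0.017), and leaving out both libraries numbered 1 raised it to 1.23 (adjusted p = 0.013).

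**Figure D2:**
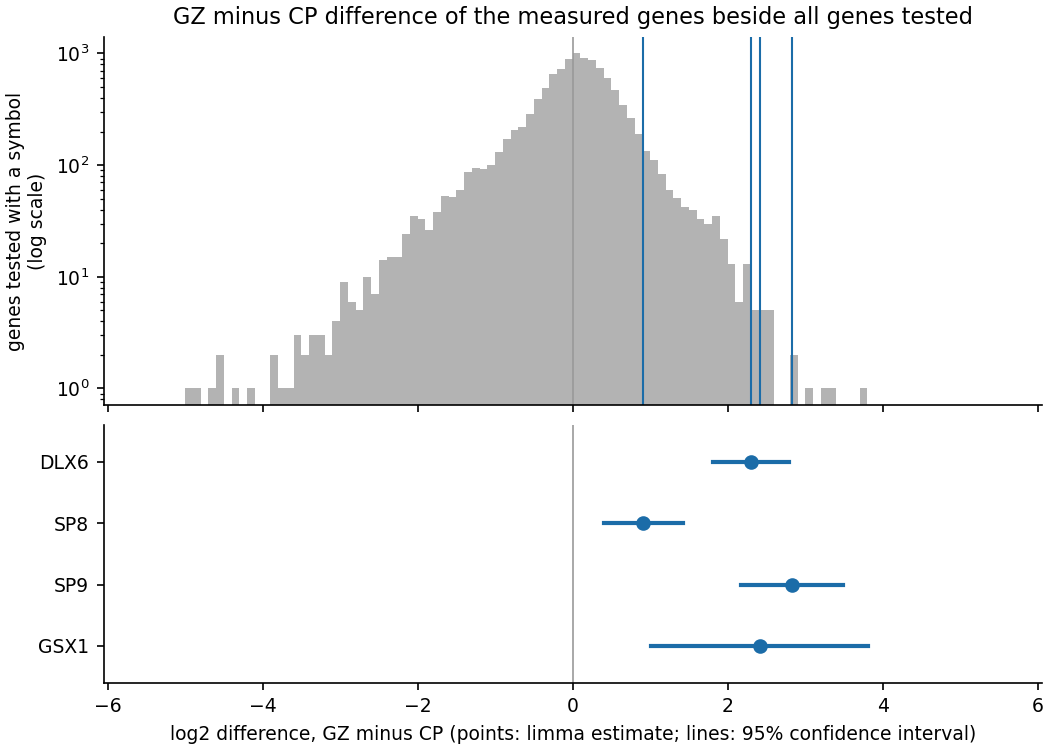
The upper panel shows the distribution of the log2 difference (x axis, GZ minus CP) over the tested genes with a symbol (y axis, number of genes on a log scale), with blue lines at the 4 members; the lower panel gives each member's limma estimate and 95% confidence interval. The intervals run from 1.81 to 2.79 for DLX6, 0.40 to 1.42 for SP8, 2.17 to 3.49 for SP9 and 1.02 to 3.81 for GSX1.

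The CP libraries ranked alike for all 4 members. CP library 1 was the highest and CP library 2 the lowest for DLX6, SP8, SP9 and GSX1. The summed level of the 15 cell cycle genes was also highest in CP library 1 and lowest in CP library 2, at 273, 200 and 215 FPKM in CP libraries 1 to 3, although single genes such as AURKB were lowest in CP library 3. The order was not particular to cell cycle genes. Dorsal telencephalic factors summed to 1143, 938 and 1051 FPKM in CP libraries 1 to 3, and ventral and GABAergic factors to 740, 618 and 718 FPKM. GABA and interneuron products had another order, at 482, 491 and 467 FPKM. GZ libraries had no common order: library 2 was highest for DLX6, SP9 and GSX1, and library 3 was highest for SP8.

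Within GZ the order of levels was SP9, SP8, DLX6 and GSX1, at 7.56 ± 0.10, 5.29 ± 0.22, 3.06 ± 0.20 and 2.05 ± 1.38 log2 FPKM (SD, n = 3). Neighbours in that order did not overlap, except DLX6 and GSX1. CP had the same order, at 4.73 ± 0.67, 4.38 ± 0.46, 0.76 ± 0.34 and -0.37 ± 0.24 log2 FPKM, and there SP9 and SP8 overlapped. Summed over the 4 genes the level was 220, 258 and 250 FPKM in GZ libraries 1 to 3, against 68.7, 32.5 and 56.1 FPKM in CP libraries 1 to 3.

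The balance between the SP genes differed between the tissues. SP9 exceeded SP8 by 2.40, 2.25 and 2.16 (log2) in GZ libraries 1 to 3, against 0.49, 0.09 and 0.47 in CP libraries 1 to 3. The excess was 1.92 larger in GZ, with no overlap between tissues (exact two-sided permutation p = 0.1, the smallest that 3 against 3 libraries allow; 0.2 after Benjamini-Hochberg adjustment over 6 pairs). SP9 minus DLX6 averaged 4.50 ± 0.21 in GZ and 3.97 ± 0.39 in CP, and SP8 minus DLX6 averaged 2.23 ± 0.31 in GZ and 3.62 ± 0.18 in CP (SD, n = 3). Both pairs were also without overlap and had the same exact p of 0.1. The 3 pairs with GSX1 overlapped between tissues, with exact p between 0.4 and 1. All pairs other than SP9 with SP8 were chosen after the values were seen.

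**Figure D3:**
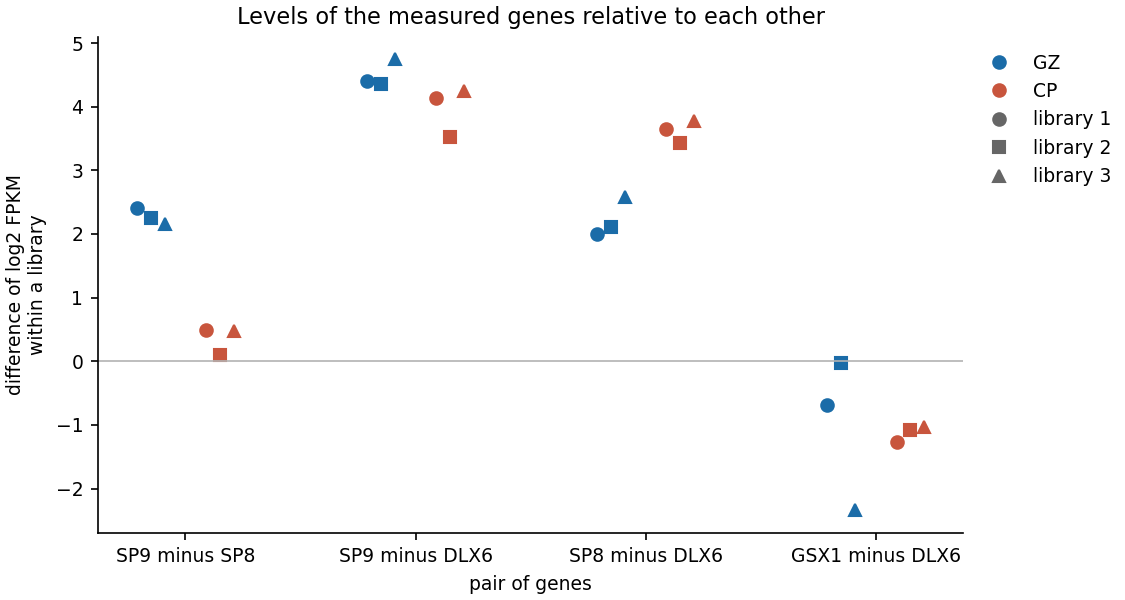
Difference in log2 FPKM between 2 genes within each library (y axis) for 4 pairs (x axis), with GZ libraries in blue and CP libraries in red. SP9 minus SP8 lies between 2.16 and 2.40 in GZ and between 0.09 and 0.49 in CP, while GSX1 minus DLX6 overlaps.

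The members were also set against GAD1, which codes for a GABA-synthesizing enzyme of GABAergic cells at large, and against the proliferation gene MKI67; these 8 comparisons were chosen after the values were seen. SP9 minus GAD1 averaged -0.61 ± 0.18 in GZ and -2.28 ± 0.64 in CP (SD, n = 3), and DLX6 minus GAD1 averaged -5.11 ± 0.04 in GZ and -6.25 ± 0.28 in CP. Both were without overlap (exact two-sided permutation p = 0.1 each, 0.2 adjusted over the 8). SP9 and DLX6 were thus higher in GZ also relative to GAD1 in every library. GAD2 differed more between the tissues than GAD1, by 2.00 against 1.16 (log2), and the members were not set against GAD2 library by library. By mean log2 difference SP9 (2.83), GSX1 (2.41) and DLX6 (2.30) exceeded GAD2, and SP8 (0.91) was below it. The overlap of SP8 relative to GAD1 thus need not hold relative to GAD2. SP8 minus GAD1 overlapped, at -2.88 ± 0.28 in GZ and -2.63 ± 0.42 in CP (exact p = 0.5), and so did GSX1 minus GAD1 (exact p = 0.3) and GSX1 minus MKI67 (exact p = 0.5). DLX6 minus MKI67 was -2.09 ± 0.24 in GZ and -2.31 ± 0.13 in CP, with overlap (exact p = 0.3). SP9 minus MKI67 was higher in GZ by 0.75, with the lowest GZ value (2.05, library 2) barely above the highest CP value (2.01, library 3). SP8 minus MKI67 was without overlap and lower in GZ, by -1.17. Both had an exact permutation p of 0.1.

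Other SP genes were also higher in GZ, by less than SP9, though SP1 by more than SP8 (0.91) and SP3 by about as much. SP1, SP2, SP3 and SP4, also zinc finger factors, were all called, at log2 differences of 1.35, 0.72, 0.94 and 0.62 (limma adjusted p = 0.0015, 0.0024, 6.8e-04 and 0.015). The list of 9 other DLX and SP genes had 7 measured and 4 tested, with 4 higher in GZ and a median difference of 0.83. Over all genes tested, 24.5% were called higher in GZ and the median difference was 0.05. SP5 stood between -0.22 and 0.07 log2 FPKM in GZ and between -1.64 and -0.64 in CP, below the filter on low values. DLX3 and DLX4, known mainly from bone, skin and placenta, stood at -2.07 or lower in all 6 libraries; like SP5 they were chosen after their values were seen.

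Factors of ventral progenitors and GABAergic specification divided. GZ had higher RNA for 8 of the 18 tested and CP for 1, while 9 were not called, and the median difference was 0.46. Of all genes tested, 24.5% were called higher in GZ and 20.9% in CP. The genes higher in GZ included NKX2-1 and LHX6, factors of the medial ganglionic eminence and its interneurons, at log2 differences of 3.39 ± 0.62 and 1.66 ± 0.14 (SE, limma adjusted p = 0.0035 and 1.4e-04). SOX6, which acts after LHX6 in those interneurons, was higher by 1.42. NKX2-1 was low in CP, at 1.18, -0.56 and -0.35 log2 FPKM in CP libraries 1 to 3. Its difference thus rests on low CP values, and with a pseudocount of 1 FPKM it was 2.53, below that of SP9. MEIS2, a factor of the lateral ganglionic eminence, was higher by 0.65 (adjusted p = 0.017) and was not called without CP library 2 or CP library 3 (adjusted p = 0.052 and 0.060). ZNF503, a striatal factor in mice, was higher in CP by a GZ minus CP difference of -1.51 ± 0.31 (adjusted p = 0.0056).

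NR2F2 and PROX1, factors of interneurons from the caudal ganglionic eminence like SP8, were not called. NR2F2 stood at 5.35, 4.92 and 5.46 log2 FPKM in GZ libraries 1 to 3, against 5.19, 4.96 and 5.46 in CP libraries 1 to 3, and PROX1 had a difference of 0.54 ± 0.25 (limma adjusted p = 0.11). NKX2-1, SIX3 and LHX8 were, like GSX1, highest in GZ library 2 and lowest in GZ library 3. The summed cell cycle genes had the same order, at 527, 651 and 395 FPKM in GZ libraries 1 to 3. So did GABA and interneuron products, at 871, 962 and 760 FPKM, and striatal projection neuron genes, at 118, 132 and 87.6 FPKM. The summed ventral and GABAergic factors did not, at 960, 991 and 1016 FPKM. The part of these lists in the order was not tested. NKX2-1 stood at 3.46, 4.60 and 2.38 log2 FPKM in GZ libraries 1 to 3, SIX3 at 1.43, 2.50 and 0.11, and LHX8 at -0.49, -0.02 and -1.49. SIX3 and LHX8, like NR2F2 and PROX1, were singled out after the values were seen; LHX8 fell below the filter and SIX3 was not called (1.76 ± 0.69, limma adjusted p = 0.069).

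**Figure D4:**
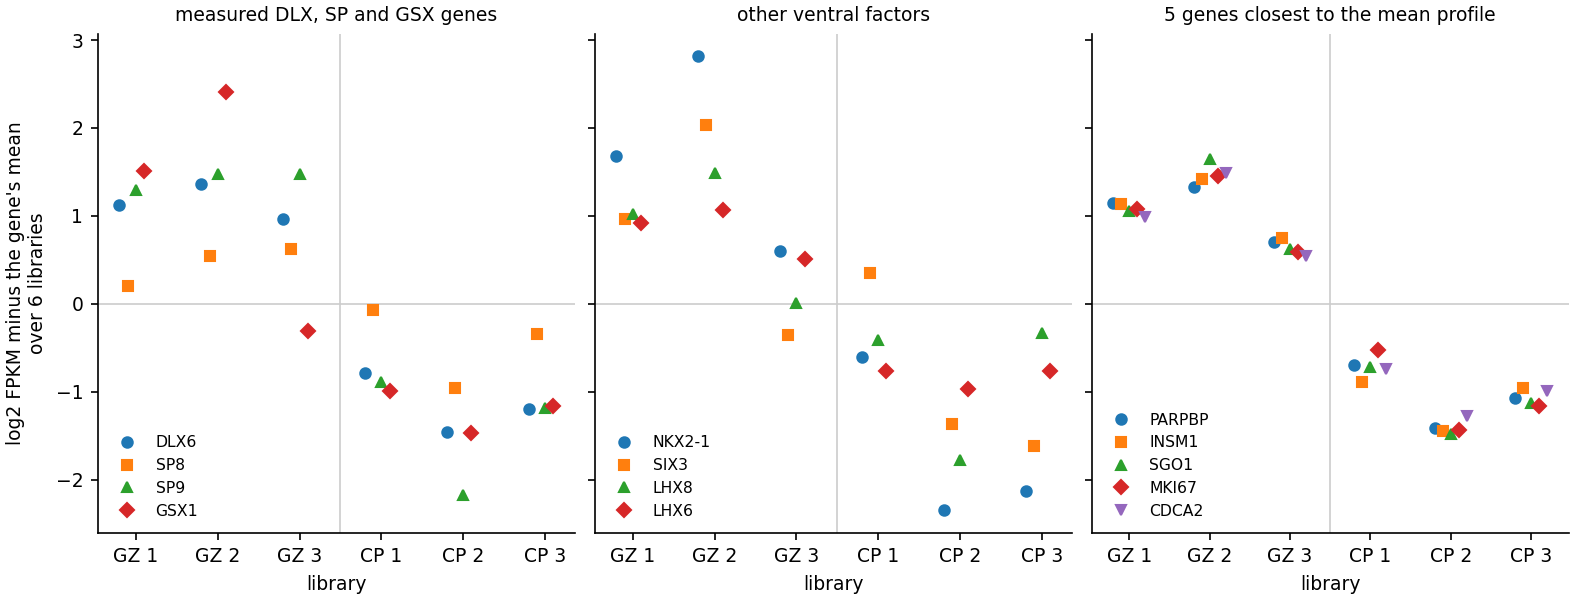
Level of each gene minus its mean over 6 libraries (y axis, log2) in the GZ and CP libraries (x axis), for the 4 measured members, 4 other ventral factors, and the 5 genes with the profile closest to the members' mean. GSX1 in GZ library 3 (-0.31) lies near the CP values, as does SIX3, while SP9 is at 1.30 to 1.48 in all GZ libraries.

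Genes of GABA synthesis and transport were higher in GZ, while interneuron products divided, with some higher in GZ and others higher in CP. GZ was higher for 7 of the 13 tested, CP for 4, and 2 were not called (median 0.69), beside 24.5% and 20.9% of all genes tested for GZ and CP. GAD1 and GAD2, which code for GABA-synthesizing enzymes, had log2 differences of 1.16 ± 0.10 and 2.00 ± 0.21, and SLC32A1, the vesicular GABA transporter gene, 1.39 ± 0.13 (SE, limma adjusted p = 1.6e-04, 3.7e-04 and 2.4e-04). SCGN, which codes for a calcium-binding protein of interneurons of the caudal eminence, stood at 3.71, 4.00 and 4.30 log2 FPKM in GZ libraries 1 to 3, against 2.20, 1.40 and 1.61 in CP libraries 1 to 3. The neuropeptide genes SST and CCK were higher in CP, with differences of -1.74 ± 0.35 and -1.19 ± 0.15 (limma adjusted p = 0.0053 and 7.8e-04). PVALB, VIP and HTR3A, markers of interneuron classes also chosen after their values were seen, averaged below the filter.

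Among 12 dorsal telencephalic factors tested, GZ was higher for 3, a share close to the 24.5% of all genes tested. CP was higher for 6, beside 20.9% of all genes tested, and 3 were not called (median -0.88). NEUROD6 and FEZF2, factors of excitatory cortical neurons, were higher in CP with differences of -3.25 ± 0.32 and -2.47 ± 0.17 (SE, limma adjusted p = 2.8e-04 and 6.9e-05). NEUROD1 and LHX2 were higher in CP at -1.26 and -1.10. TFAP2C, a factor of basal progenitors, was higher in GZ at 1.49 ± 0.46 (limma adjusted p = 0.032), a call lost without any 1 of the GZ libraries, CP library 2 or CP library 3 (adjusted p from 0.056 to 0.099). Without GZ library 1, GZ library 3 or CP library 2, 1 dorsal factor was higher in GZ. NEUROD6 stood at 4.75, 4.16 and 5.63 log2 FPKM in GZ libraries 1 to 3, highest in the library where GSX1 was lowest, against 8.34, 7.93 and 8.01 in CP libraries 1 to 3.

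**Figure D5:**
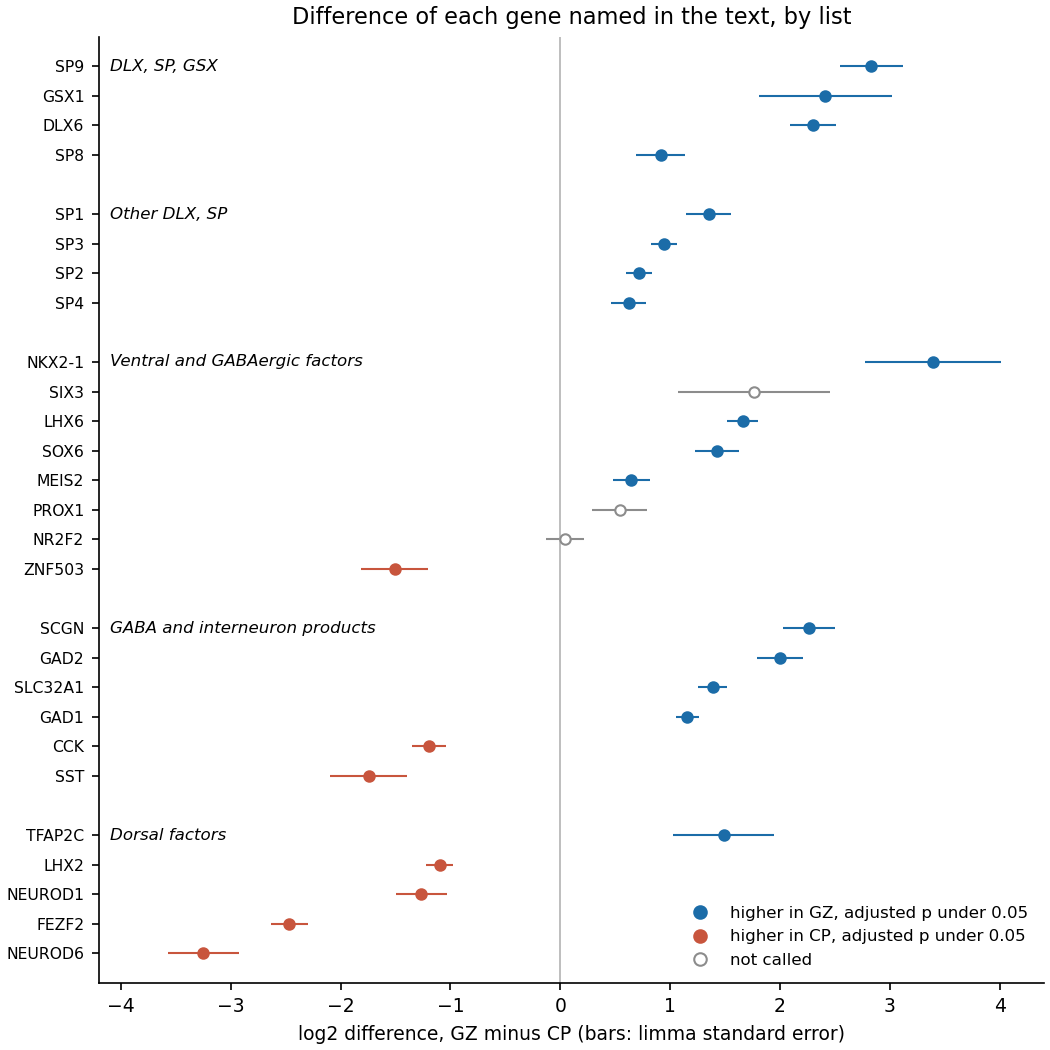
Log2 difference (x axis, GZ minus CP; bars are limma standard errors) of the tested genes named in the text (y axis), for the members and 4 other lists; blue genes were called higher in GZ, red genes higher in CP and open circles were not called. Only NKX2-1 exceeds SP9 among the genes drawn, an order that a pseudocount of 1 FPKM reverses, and NEUROD6 at -3.25 is the lowest.

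Markers of other cells and states moved with the same comparison, and their part in the members' differences was not tested. Of 15 cell cycle genes 14 were higher in GZ, among them MKI67 (2.08), CCNB2 (2.07) and AURKB (1.98), and the list summed to 395 to 651 FPKM in GZ and 200 to 273 FPKM in CP. All 7 vessel genes measured were higher in CP, with FLT1, KDR and RGS5 at -2.09, -2.02 and -1.85 and sums of 25.6 to 54.6 FPKM in GZ and 104 to 149 FPKM in CP. Of 10 striatal projection neuron genes 3 were higher in GZ, among them BCL11B (1.75) and the dopamine receptor gene DRD2 (1.50), and 2 were higher in CP, among them the tachykinin gene TAC1 (-2.54); both counts are close to the shares over all genes tested (24.5% and 20.9%). The list summed to 87.6 to 132 FPKM in GZ and 73.2 to 82.5 FPKM in CP. Without GZ library 3, 5 striatal genes were higher in GZ, and without any 1 of GZ library 1, GZ library 2, CP library 2 or CP library 3 the count was 1. DRD2 was not called in those last 4 cases (limma adjusted p from 0.052 to 0.071). None of 3 microglia genes and none of 6 meningeal and choroid plexus genes was called in limma. TYROBP and LUM had the largest differences there, at 0.44 ± 0.37 and -1.07 ± 0.39 (adjusted p = 0.37 and 0.054), and LUM was called without CP library 1 (adjusted p = 0.014), GZ library 3 (adjusted p = 0.029) or both libraries numbered 1 (adjusted p = 0.042), and with the replicate number as a block (adjusted p = 0.036). Microglia genes summed to 39.7 to 63.9 FPKM in GZ and 51.6 to 75.8 FPKM in CP, and the meningeal and choroid plexus list to 90.2 to 125 FPKM in GZ and 79.6 to 93.9 FPKM in CP.

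The 5 genes with the profile closest to the mean of the 4 members over the 6 libraries were PARPBP, INSM1, SGO1, MKI67 and CDCA2. With each gene's own mean subtracted, the members' mean was 1.04, 1.45 and 0.69 in GZ libraries 1 to 3. It includes GSX1, which entered the tests through its GZ level and stood at 1.52, 2.41 and -0.31. DLX6 stood at 1.13, 1.36 and 0.96, SP9 at 1.30, 1.48 and 1.47, and SP8 at 0.20, 0.54 and 0.62. Closeness to a mean without GSX1 was not tested. Their root mean square distance from that mean profile was 0.09 to 0.12 on the log2 scale, and among the members it was 0.16 for DLX6, 0.45 for SP9, 0.62 for GSX1 and 0.66 for SP8. INSM1, a zinc finger gene of neurogenic progenitors, stood at 7.25, 7.53 and 6.86 log2 FPKM in GZ libraries 1 to 3, against 5.22, 4.67 and 5.16 in CP libraries 1 to 3. The other 4 were lower, with GZ values from 1.79 to 5.57 and CP values from -0.32 to 3.59.

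In the order of protein-coding genes of the RefSeq assembly T2T-MMU8v2.0, which is not the build of the RNA table, DLX1 lies next to DLX2 and DLX5 next to DLX6. Of the 12 other direct neighbours of the 8 genes, 8 were tested, and 2 were higher in GZ, a share near the 24.5% of all genes tested: METAP1D beside DLX1 (0.84 ± 0.19, limma adjusted p = 0.0094) and SP4 beside SP8. Both calls were lost without both libraries numbered 1 (adjusted p = 0.089 and 0.064). OLA1 and CIR1, on either side of SP9, had differences of -0.04 ± 0.15 and 0.00 ± 0.10 (adjusted p = 0.85 and 0.97). SEM1, the neighbour of DLX6, stood at 6.01, 5.93 and 5.46 log2 FPKM in GZ libraries 1 to 3, against 5.64, 5.85 and 5.91 in CP libraries 1 to 3. ITGA6, SDHAF3 and PDGFRA, beside DLX2, DLX5 and GSX2, were not called either.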

How the data were processed

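The deposited RNA values are log2 FPKM after the authors' cqn step, per the labels. The submitters' processing notes name STAR among the tools and rheMac8 and Mmul_8.0.1 as builds; no source used here gives the read counter, the strand setting or the annotation release. Of 22345 identifiers, 14700 (65.8%) had a symbol in the Ensembl-based table used. Genes averaging at least 0 across all 6 libraries (13460 genes) were fitted with limma 3.58.1 in R 4.3.3 (lmFit, eBayes with trend, GZ minus CP, no block, no pseudocount), with two-sided p-values adjusted by Benjamini-Hochberg over all of them and called under 0.05. On simulated data for this comparison with 200 of 13460 genes changed, 71% of changes of 1 and 95% of changes of 2 (log2) were recovered, with 14 false calls. In the real data 45.4% of genes tested were called, a far larger share than was changed there, so these rates need not hold for them. The members and lists were chosen with earlier results of these data known. Named genes are the members, up to 6 called genes with the largest difference in the ventral, GABA and dorsal lists and up to 3 in others (1 where none was called), the 5 closest profiles and direct neighbours; others are said to be chosen later. A few genes that the rule names are not reported here. Hi-C, DNase and CTCF files were not used, since no annotation on their build is used here. The planned DLX and GSX pair comparisons could not be made because 1 or both genes of each pair were not in the table. Alternatives were a replicate block, quantile normalization, median centring, 2 other filters, eBayes without trend or robust, adding a pseudocount of 1, and omitting each library or both libraries numbered 1. Figures were drawn with matplotlib 3.10.9.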

Additional observations from a re-analysis of the deposited data

How the results depend on the processing

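DLX6, SP8 and SP9 kept their direction and call under all 15 alternatives, with log2 differences of 1.79 to 2.49, 0.66 to 1.23 and 2.45 to 3.15; with each library left out in turn the ranges were 2.14 to 2.48, 0.66 to 1.11 and 2.45 to 3.09. GSX1 kept its call under 13 of 14 (1.60 to 3.17; limma adjusted p up to 0.049 with each library left out) and lost it without both libraries numbered 1 (2.36, adjusted p = 0.082), where the number of samples was 4; its mean was below the stricter filter. That setting also called 1647 genes for GZ and 1716 for CP, against 3297 and 2816 with all libraries, with 2 ventral factors and 1 meningeal gene higher in CP and 1 microglia gene higher in GZ. The numbers were not taken as pairs: deviations of same-numbered libraries correlated at -0.38 for number 1, and GZ library 1 correlated best with CP library 2, although numbers 2 and 3 correlated at 0.30 and 0.35, each best with its own number. The replicate block gave 3300 and 2817 genes, DLX6 and SP8 adjusted p of 0.0010 and 0.016, SP9 and GSX1 7.8e-04 and 0.013, and 1 meningeal gene higher in GZ and 2 in CP; SP9 minus SP8 stayed at 1.92 (exact sign-flip p = 0.25, the smallest possible). With each library left out, counts ran from 1 to 2 (ventral factors higher in CP), 1 to 2 (dorsal factors higher in GZ), 1 to 5 (striatal genes higher in GZ), 0 to 1 and 0 to 2 (meningeal genes higher in GZ and in CP), 2261 to 3146 (all genes higher in GZ) and 2243 to 2855 (in CP). Neighbouring genes that were not called changed sign: SEM1 was -0.00319 with median centring, -0.000443 with quantile normalization and -0.18 without the libraries numbered 1, CIR1 -0.00137 with median centring, and PDGFRA 0.10 without the libraries numbered 1. With each library left out, ITGA6 ran from -0.23 to 0.014, SDHAF3 from -0.15 to 0.14, SEM1 from -0.10 to 0.17, OLA1 from -0.15 to 0.15, CIR1 from -0.062 to 0.069 and PDGFRA from -0.12 to 0.035. The cause was not tested. The unfiltered fit shifted the median difference of all genes to 0.21, against 0.05. Read depth is unknown, so how far it limits the low genes GSX1 and DLX6 cannot be given.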
